A study of Mus musculus with 9 samples.

Results

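The cholesterol and fatty acid synthesis genes described here are 30 genes of the mouse, found in the deposited expression table by a gene name equal to a listed symbol, of 36256 genes in all. They comprise 5 regulators built around the SREBP transcription factors, 7 genes of the mevalonate steps, 3 genes that make squalene and lanosterol, 8 genes of the steps from lanosterol to cholesterol, 1 cholesterol carrier and 6 genes of fatty acid synthesis. The study sequenced poly(A) RNA of colon tissue from 9 mice of the C57BL/6 strain. The 3 NC mice were controls, the 3 MC mice had colitis from dextran sulfate sodium (DSS), a polymer given to injure the colon lining, with modelling over 9 days, and the 3 LRWE mice had DSS with modelling over the same 9 days together with Linderae Radix extract at 2.0 g/kg. Each library came from 1 mouse, no genetic change was labelled in any group, and the sources used here do not say which segment of colon was taken. Levels are in CPM, counts scaled to the size of each library, and are listed for replicates 1, 2 and 3 of a group in that order. Changes are log2 fold changes ± SE from edgeR with n = 3 mice per group, and a gene was called at a p-value under 0.05 after Benjamini-Hochberg adjustment over all 21767 tested genes. All 30 genes passed the filter on low counts.

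Cells make cholesterol from acetyl-CoA through mevalonate, farnesyl diphosphate, squalene and lanosterol. The transcription factors SREBP-1 and SREBP-2, encoded by Srebf1 and Srebf2, sit in the membrane of the endoplasmic reticulum bound to the escort protein Scap. When sterols are plentiful, Insig proteins hold this complex back, and when sterols are scarce it moves to the Golgi, where the factors are cut free and enter the nucleus to switch on synthesis genes. SREBP-2 acts mainly on cholesterol synthesis and SREBP-1 mainly on fatty acid synthesis, and Insig1 is itself a gene that SREBPs switch on. The intestinal epithelium both takes up and makes cholesterol.

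Promoters are shown for 2 genes whose RNA was higher in DSS colon, Srebf2 and Hmgcs1, and for the 2 whose RNA was lower in both DSS groups, Insig1 and Ebp. Each runs from 250 bases before to 50 bases after the start of the RefSeq gene on GRCm38.p6, 5′ to 3′ on the strand of the gene. Srebf2 lies at chr15:82147019-82147318, plus strand, Hmgcs1 at chr13:119690101-119690400, plus strand, Insig1 at chr5:28071162-28071461, plus strand, and Ebp at chrX:8193463-8193762, minus strand. Capitals mark 2 motifs found on either strand, TCACNCCA, a form of the sterol regulatory element bound by SREBPs, and CCAAT, which reads ATTGG on the other strand, the site of the factor NF-Y, which acts with SREBPs.
Srebf2: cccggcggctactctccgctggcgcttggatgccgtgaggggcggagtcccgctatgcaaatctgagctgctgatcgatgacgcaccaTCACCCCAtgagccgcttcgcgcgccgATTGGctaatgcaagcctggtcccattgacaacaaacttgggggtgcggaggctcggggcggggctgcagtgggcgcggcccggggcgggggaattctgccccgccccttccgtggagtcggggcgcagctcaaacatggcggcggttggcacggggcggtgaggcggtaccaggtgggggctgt
Hmgcs1: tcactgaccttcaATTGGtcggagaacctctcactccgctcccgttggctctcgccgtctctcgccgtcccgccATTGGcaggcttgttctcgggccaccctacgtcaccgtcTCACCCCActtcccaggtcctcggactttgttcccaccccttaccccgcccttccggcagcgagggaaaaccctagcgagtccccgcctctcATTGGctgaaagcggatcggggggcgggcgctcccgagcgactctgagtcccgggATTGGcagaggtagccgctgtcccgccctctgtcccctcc
Insig1: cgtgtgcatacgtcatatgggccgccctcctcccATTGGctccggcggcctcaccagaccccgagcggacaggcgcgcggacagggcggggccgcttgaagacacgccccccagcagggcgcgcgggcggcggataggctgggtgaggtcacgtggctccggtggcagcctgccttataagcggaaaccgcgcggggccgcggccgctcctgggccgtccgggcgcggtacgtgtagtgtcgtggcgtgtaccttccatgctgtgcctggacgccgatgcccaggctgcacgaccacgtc
Ebp: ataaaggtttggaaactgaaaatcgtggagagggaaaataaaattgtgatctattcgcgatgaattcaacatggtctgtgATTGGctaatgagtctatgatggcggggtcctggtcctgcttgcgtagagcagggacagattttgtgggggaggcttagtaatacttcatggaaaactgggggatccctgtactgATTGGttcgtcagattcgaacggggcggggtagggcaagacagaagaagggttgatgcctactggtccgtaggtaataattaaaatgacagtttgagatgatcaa
The first motif stood once in the Srebf2 promoter and once in that of Hmgcs1, and in neither of the other 2 printed promoters. That motif had no match in the promoters of Idi1, Lss, Cyp51, Hsd17b7 and Elovl6, whose RNA was also higher in DSS colon. The contrast between the printed promoters therefore depends on which of the higher genes were printed. CCAAT had 4 matches in the Hmgcs1 promoter, 2 in that of Ebp and 1 each in those of Srebf2 and Insig1.

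Of the 30 genes, 24 had a promoter in the RefSeq table, with 32 promoters between them. The sterol regulatory form TCACNCCA was in the promoter of 3 of the 24 genes (12.5%), namely Srebf2, Hmgcs1 and Msmo1, against 4.97% of all 27025 genes with a promoter of this length. CCAAT was in 20 of the 24 (83.3%, against 41.1% of all genes), and the GC box GGGCGG, the site of Sp1, was also in 20 of the 24 (83.3%, against 38.2%). All 3 motifs were searched on both strands, matches may overlap one another, and the letters of the first were chosen after these promoters had been read. CCAAT was present in promoters of Cyp51 (1 match) and Hsd17b7 (3 matches), which rose, and of Insig1 and Ebp, which fell. A match is a description of the sequence, and binding was not measured.

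Library totals ran from 59042063 to 65042857 counts, and between 21218 and 26019 genes had a count. LRWE 2 lay far from the other libraries on principal component 1 and had the lowest quality weight (0.247), followed by MC 2 (0.385) and LRWE 1 (0.494). Colon epithelium markers were abundant in every library, at a summed 7125 to 20573 CPM over 12 genes. Genes of colon position also moved with the groups. The mean log2 CPM of 4 proximal colon genes lay 1.22 to 4.72 above the NC mean in MC and 4.15 to 5.02 above it in LRWE, and that of 4 distal colon genes lay -6.52 to -2.43 and -9.16 to -6.51 from it in the same order. All 4 proximal genes (Hoxb5, Hoxb6, Hoxb8 and Osr2) rose in both DSS groups, and of the distal genes Slc37a2 fell in both and Hoxb13 and Hoxd13 in LRWE. The part of colon position in the results on the synthesis genes was not tested. In bulk tissue, fewer cells of a type and less RNA per cell cannot be told apart.

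In DSS colon without extract, Srebf2, Hmgcs1, Idi1, Fdps, Fdft1, Sqle, Lss, Cyp51, Hsd17b7 and Elovl6 rose against control colon, and Insig1 and Ebp fell. Of the 30 genes, 12 were called in MC against NC, 10 higher and 2 lower, where 6.37% of all tested genes were called (2.84% higher and 3.53% lower). The MC and NC libraries did not overlap for 16 genes higher in MC and 3 lower, against 39.6% of all tested genes (19.5% higher and 20.1% lower). At an unadjusted p under 0.05 stood 19 of the 30 genes and 24.3% of all tested genes. The median log2 fold change of the 30 genes was 0.50, beside -0.01 over all tested genes. Scaling by library totals alone turned the split of all called genes from 618 higher and 768 lower to 783 higher and 539 lower, and called 11 of the 30 genes higher and 2 lower. The count of 12 became 5 without NC 1 or NC 3, 6 without NC 2 and 7 without MC 3. All genes called were 1386 with every library kept. They came to 281 without NC 1, 308 without NC 2, 476 without NC 3 and 506 without MC 3.

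In DSS colon with extract, the same 10 genes were called higher against control colon together with the carrier Stard4 and the regulators Srebf1 and Insig2, and Acly was called lower beside Insig1 and Ebp. Here 16 of the 30 genes were called, 13 higher and 3 lower, where 10.0% of all tested genes were called (6.04% higher and 3.97% lower). The libraries did not overlap for 19 genes higher in LRWE and 3 lower, against 37.1% of all tested genes (16.6% higher and 20.5% lower), and 20 of the 30 genes had an unadjusted p under 0.05, against 26.9%. The median log2 fold change was 0.58, beside -0.05 over all tested genes. The count of 16 became 8 without NC 1 and 7 without NC 2 or NC 3. All genes called went from 2179 to 534 without NC 1, 459 without NC 2 and 558 without NC 3. Both comparisons use the same 3 NC libraries, so they are not independent of each other. The direct comparison of LRWE with MC called none of the 30 genes and none of all tested genes (0.00%), and is described last.

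Markers of several cell types also differed between these groups. In LRWE against NC, 8 of 12 epithelium markers were higher without overlap, where 16.6% of all tested genes were, with a median of 0.58, and Cdx2 and Krt20 rose. All 8 smooth muscle markers were lower without overlap, where 20.5% of all tested genes were, with a median of -1.06, and Tagln fell. Smooth muscle markers summed to between 9118 and 13448 CPM over the NC libraries, 7005 and 12572 over MC, and 2689 and 7139 over LRWE. All 6 B and plasma cell markers were lower without overlap in LRWE, with a median of -4.97, and Jchain fell in both DSS groups. The 6 summed to between 198.8 and 678 CPM over the NC libraries, 12.4 and 112 over MC, and 18.5 and 43.6 over LRWE. In MC against NC, 2 of 12 epithelium markers were higher and 3 lower without overlap, against 19.5% and 20.1% of all tested genes. The median of the 12 markers was -0.25, 10 of them lay below 0, and Cdx2 rose. There 1 of 8 smooth muscle markers was lower without overlap (median -0.18), as were 2 of 6 B and plasma cell markers (median -1.60). Both counts stand beside the 20.1% of all tested genes that were lower. Of 6 glia and Schwann cell markers, 5 were higher without overlap (median 1.44), against the same 19.5%, and Gfap rose in both DSS groups. The part of these cell types in the synthesis gene values was not tested.

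**Figure D1:**
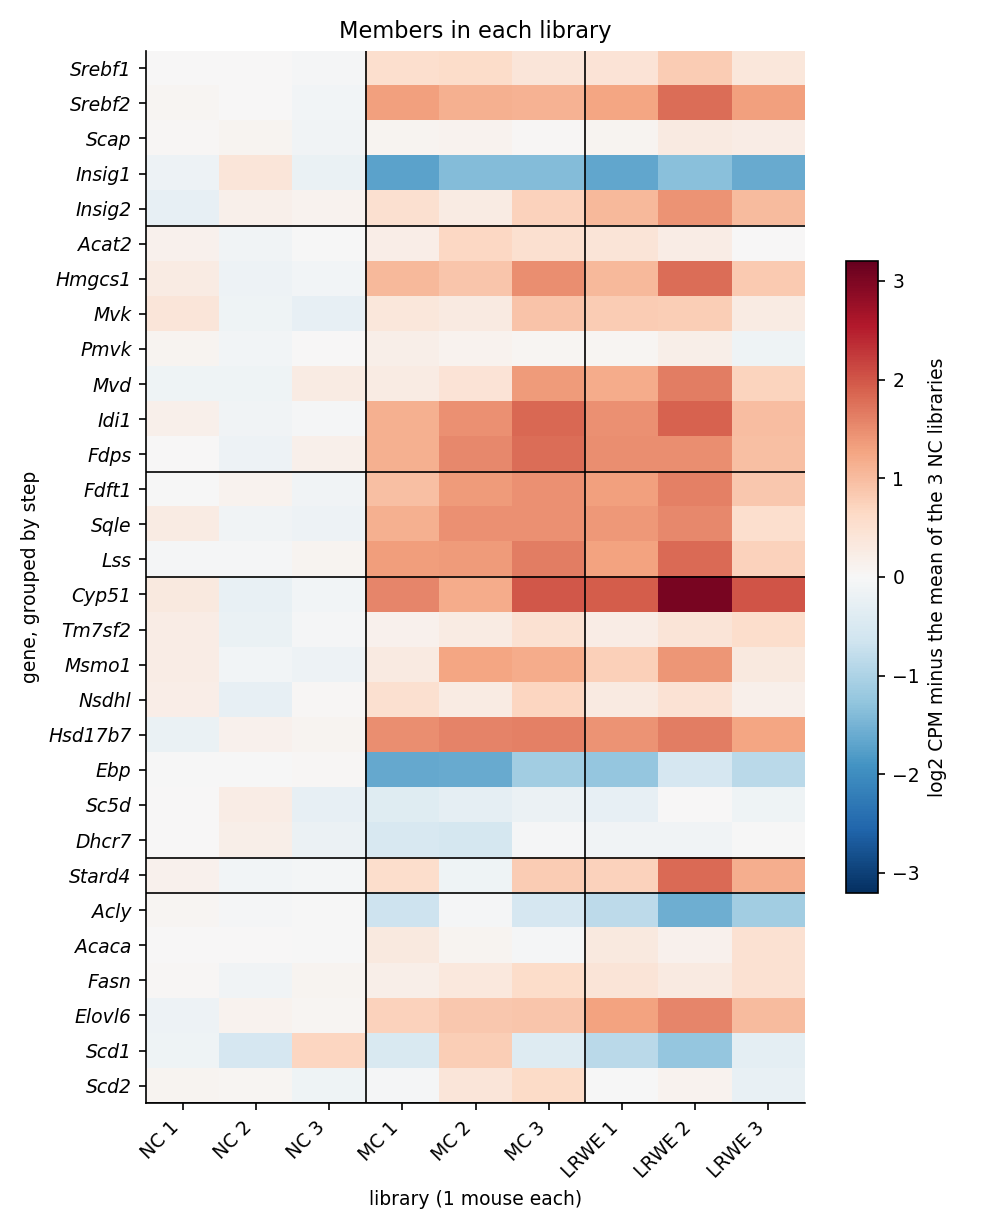
Heat map of the 30 genes (rows, grouped by step) in the 9 libraries (columns), coloured by log2 CPM minus the mean of the 3 NC libraries. Rows from Hmgcs1 to Hsd17b7 hold most of the red in MC and LRWE, Insig1 and Ebp are blue in all 6 DSS libraries, and the darkest cell is Cyp51 in LRWE 2.

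Among the regulators, Srebf2 rose and Insig1 fell in both DSS groups. Srebf2 (ENSMUSG00000022463, chromosome 15, 82031382 to 82089580, plus strand, coordinates as deposited, build not named) stood at 80.9, 78.4 and 73.3 CPM (NC), 194, 171 and 167 CPM (MC) and 187, 269 and 191 CPM (LRWE). All 6 DSS libraries lay above all NC libraries, and LRWE 2 was the highest. The log2 fold change was 1.19 ± 0.17 (adjusted p = 0.00769) in MC and 1.48 ± 0.17 (adjusted p = 0.00404) in LRWE.

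Insig1 (ENSMUSG00000045294, chromosome 5, 28276361 to 28283660, plus strand), the sterol-dependent anchor of Scap, stood at 95.5, 139 and 92.9 CPM (NC), 32.8, 40.97 and 41.2 CPM (MC) and 33.6, 42.6 and 34.8 CPM (LRWE). The DSS libraries lay close together and below every NC library, of which NC 2 was the highest. Its change was -1.51 ± 0.20 (adjusted p = 0.00564) in MC and -1.56 ± 0.20 (adjusted p = 0.00467) in LRWE. Insig2 (ENSMUSG00000003721, chromosome 1, 121232082 to 121260318, minus strand), the second anchor, stood at 25.3, 34.2 and 32.7 CPM (NC), 43.8, 36.4 and 50.7 CPM (MC) and 62.3, 82.7 and 61.5 CPM (LRWE). The 3 groups did not overlap, with LRWE highest and NC lowest. Insig2 was called in LRWE, by 1.16 ± 0.19 (adjusted p = 0.00987), and not in MC, at 0.51 ± 0.19 (adjusted p = 0.145), where it passed in 4 alternatives (0.0290 to 0.0459).

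Srebf1 (ENSMUSG00000020538, chromosome 11, 60089915 to 60113407, minus strand) stood at 50.7, 51.1 and 48.9 CPM (NC), 72.4, 75.1 and 65.5 CPM (MC) and 67.5, 88.5 and 64.3 CPM (LRWE), with both DSS groups above NC and overlapping each other. The change was 0.55 ± 0.15 (adjusted p = 0.0496) in LRWE, just under the threshold, and 0.50 ± 0.15 (adjusted p = 0.0789) in MC, just over it. The LRWE call was lost in 8 of the 9 fits that left out 1 library (adjusted p = 0.0505 to 0.163), all but the fit without MC 2, and in 7 of the other 10 alternatives (0.05997 to 0.0982). The MC value passed without LRWE 2 (adjusted p = 0.0244) and in 7 of the other 10 alternatives (0.00724 to 0.0402). Srebf1 overlaps Rai1 on the opposite strand by 109 bases. Scap RNA, at 0.08 ± 0.12 in MC and 0.21 ± 0.12 in LRWE, was not called, and its 9 libraries ran from 42.5 to 56.4 CPM. The calls of Srebf2 and Insig1 against NC held under all 19 alternatives in both DSS groups, and that of Insig2 in LRWE held under all 19.

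**Figure D2:**
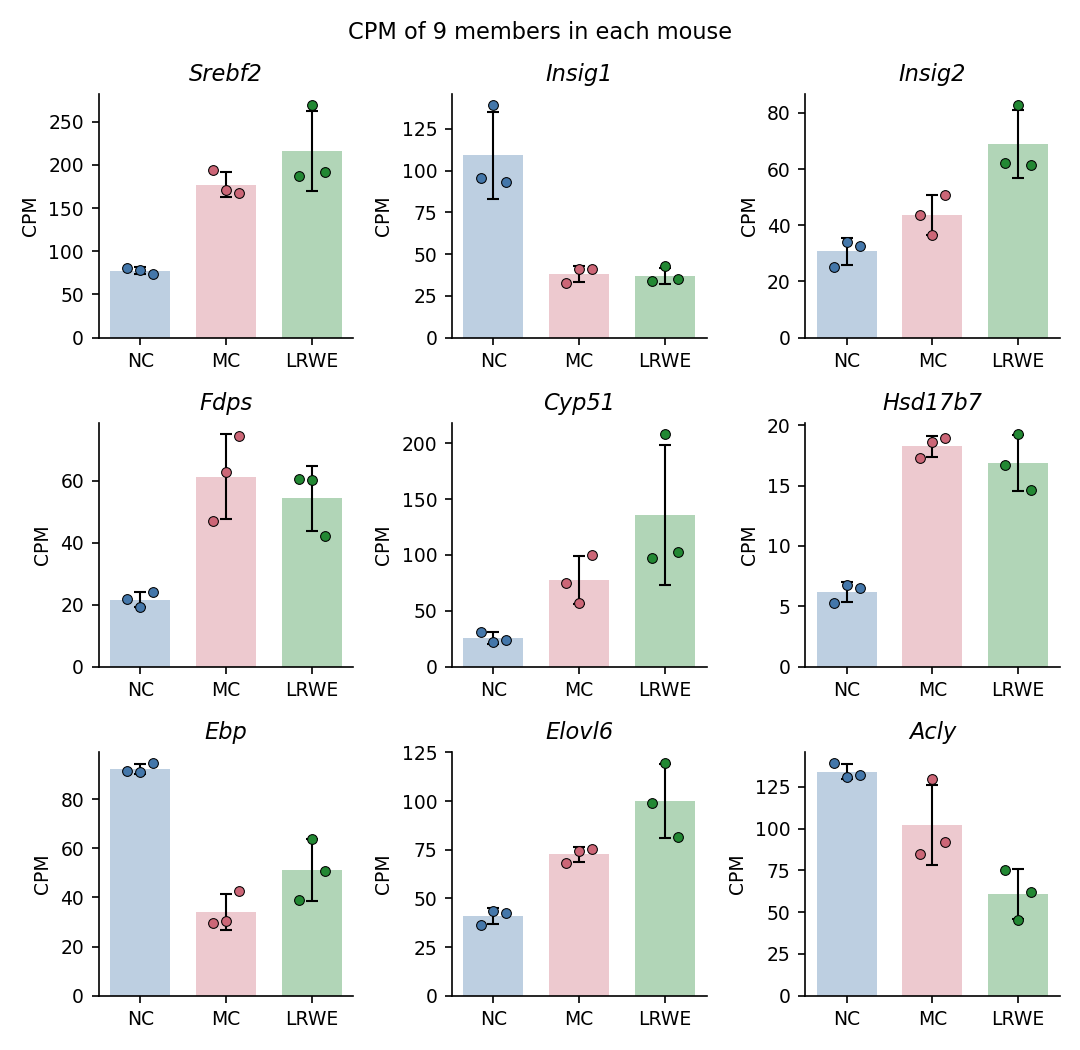
CPM of 9 genes in each mouse, with points for mice, bars for group means from 0 and error bars of 1 SD (n = 3). Srebf2, Fdps, Cyp51, Hsd17b7 and Elovl6 stand higher in both DSS groups than in NC, and Insig1 and Ebp lower.

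The mevalonate steps carry acetyl-CoA to farnesyl diphosphate, and 3 of the 7 genes rose in both DSS groups with none lower. Hmgcs1 (ENSMUSG00000093930, chromosome 13, 120151915 to 120169796, plus strand), the synthase of HMG-CoA, stood at 107, 80.1 and 84.1 CPM (NC), 183, 165 and 252 CPM (MC) and 184, 312 and 159 CPM (LRWE). MC and LRWE lay above NC throughout, and LRWE 2 and MC 3 were the highest of their groups. Its change was 1.15 ± 0.28 (adjusted p = 0.0446) in MC and 1.27 ± 0.28 (adjusted p = 0.0252) in LRWE.

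Idi1 (ENSMUSG00000058258, chromosome 13, 8935537 to 8942487, plus strand), which interconverts the pair of 5-carbon isoprenoid units, stood at 16.9, 13.9 and 14.7 CPM (NC), 33.1, 41.6 and 53.9 CPM (MC) and 41.3, 55.9 and 29.8 CPM (LRWE), with no overlap between NC and either DSS group. It rose by 1.50 ± 0.26 (adjusted p = 0.0143) in MC and 1.48 ± 0.26 (adjusted p = 0.0117) in LRWE. Fdps (ENSMUSG00000059743, chromosome 3, 89000895 to 89009266, minus strand), the synthase of farnesyl diphosphate, stood at 21.7, 19.1 and 23.9 CPM (NC), 46.9, 62.7 and 74.3 CPM (MC) and 60.6, 60.1 and 42.2 CPM (LRWE), again without overlap with NC. It rose by 1.51 ± 0.21 (adjusted p = 0.00763) in MC and 1.33 ± 0.21 (adjusted p = 0.00865) in LRWE.

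The other 4 genes of these steps were not called. Mvd, the decarboxylase that makes isopentenyl diphosphate, was nearest to a call, at 1.22 ± 0.34 (adjusted p = 0.0534) in LRWE and 0.77 ± 0.34 (adjusted p = 0.203) in MC. It passed in LRWE in 5 alternatives that left out no library of LRWE or NC (DESeq2, limma on log2 FPKM with either of 2 pseudocounts, voom with quality weights, and a fit of those 2 groups alone), with an adjusted p of 0.00753 to 0.039, and without MC 2 (0.04996) or MC 3 (0.0334). Mvk, the mevalonate kinase, was at 0.52 ± 0.27 in MC and 0.61 ± 0.27 in LRWE. Acat2, the thiolase that joins acetyl-CoA units, was at 0.47 ± 0.19 and 0.23 ± 0.19, and Pmvk, the kinase after Mvk, at 0.12 ± 0.16 and 0.05 ± 0.16.

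Several calls of these steps were lost when 1 library was left out. In those fits the log2 fold changes of Hmgcs1, Idi1 and Fdps against NC stayed at 0.93 or above. Hmgcs1 lost its MC call when any 1 NC library, MC 1 or MC 3 was left out (adjusted p = 0.0944 to 0.15) and its LRWE call without any 1 NC library (0.0672 to 0.104). Idi1 lost its MC call without any 1 NC library (0.0589 to 0.0691) and its LRWE call without NC 2 (0.0605) or NC 3 (0.0556). Fdps kept its MC call in all 19 alternatives and lost its LRWE call without NC 2 (adjusted p = 0.0568).

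**Figure D3:**
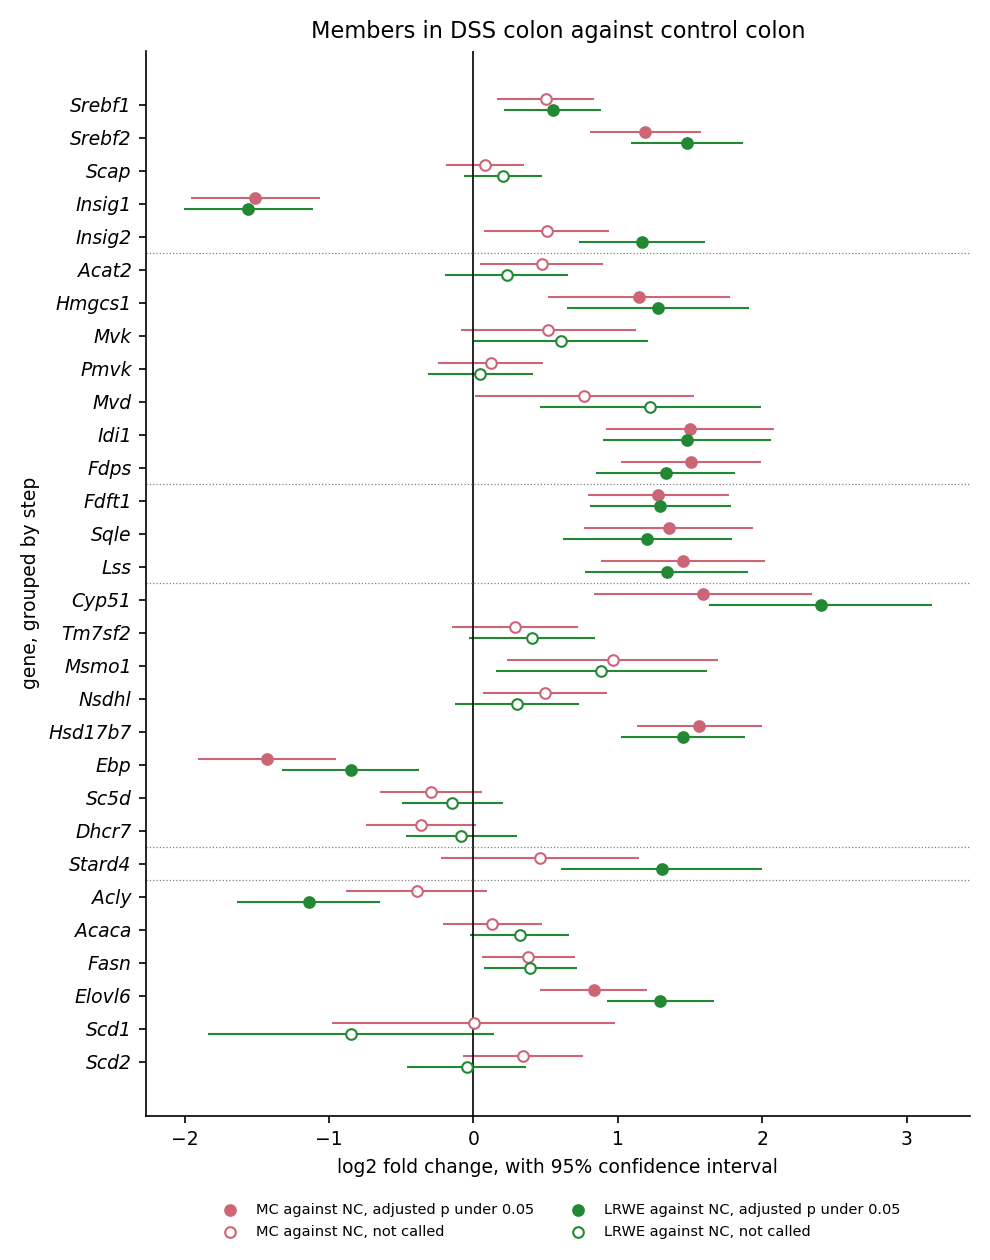
Log2 fold change against NC of the 30 genes, for MC (red) and LRWE (green), with 95% confidence intervals and filled points for called genes. The 3 squalene and lanosterol genes lie at 1.20 to 1.45 in both groups, and Insig1 and Ebp lie below 0 in both.

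All 3 genes of the squalene and lanosterol steps rose in both DSS groups. These steps commit farnesyl diphosphate to sterols. Fdft1 (ENSMUSG00000021273, chromosome 14, 63382599 to 63417027, minus strand), squalene synthase, stood at 47.1, 51.6 and 44.1 CPM (NC), 92.99, 122 and 132 CPM (MC) and 118, 146 and 85.7 CPM (LRWE). It rose by 1.28 ± 0.22 (adjusted p = 0.0132) in MC and 1.29 ± 0.22 (adjusted p = 0.0101) in LRWE. Fdft1 overlaps Ctsb on the opposite strand by 774 bases, Ctsb had 300422 counts over the 9 libraries against 52019 for Fdft1, and Ctsb itself was at 0.59 ± 0.17 in MC (adjusted p = 0.0686). Without a stated strand setting the reads of the overlap cannot be assigned.

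Sqle (ENSMUSG00000022351, chromosome 15, 59186926 to 59203041, plus strand), squalene epoxidase, stood at 26.4, 20.3 and 19.7 CPM (NC), 48.2, 60.2 and 60.7 CPM (MC) and 57.2, 63.9 and 31.7 CPM (LRWE). LRWE 3 was the lowest DSS library and still lay above the highest NC library. Sqle rose by 1.35 ± 0.26 (adjusted p = 0.0205) in MC and 1.20 ± 0.26 (adjusted p = 0.0240) in LRWE. Lss (ENSMUSG00000033105, chromosome 10, 76367422 to 76392972, plus strand), which closes the rings to form lanosterol, stood at 11.8, 11.7 and 12.8 CPM (NC), 30.7, 30.9 and 37.3 CPM (MC) and 29.3, 42.1 and 20.1 CPM (LRWE), with the NC libraries close together and the DSS libraries above them. It rose by 1.45 ± 0.25 (adjusted p = 0.0148) in MC and 1.34 ± 0.25 (adjusted p = 0.0148) in LRWE.

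As a mean log2 CPM above the NC mean in each library, the 3 genes lay at 1.15, 1.39 and 1.52 in MC and at 1.32, 1.66 and 0.71 in LRWE, with NC between -0.06 and 0.07. Epithelium markers lay at 0.03, -0.63 and 0.41 in MC and 0.55, 1.12 and 0.73 in LRWE, with NC at -0.23 to 0.11, and their part in the values of the 3 genes was not tested. Calls were lost for Fdft1 without NC 1 or NC 3 (adjusted p = 0.0572 to 0.0686 in MC and 0.052 to 0.0523 in LRWE). Sqle and Lss lost theirs without any 1 NC library in both groups (0.053 to 0.104), without MC 3 in MC (0.069 and 0.0538), and Sqle also without LRWE 2 in LRWE (0.0562).

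**Figure D4:**
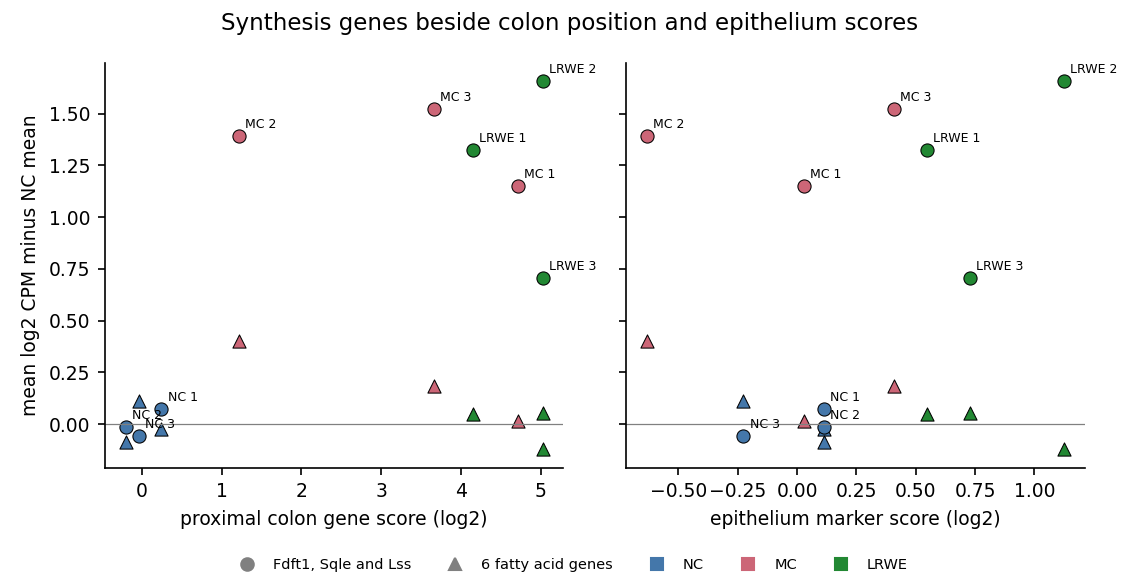
Mean log2 CPM minus the NC mean of Fdft1, Sqle and Lss (circles) and of the 6 fatty acid genes (triangles) in each library, against the same measure for proximal colon genes (left) and epithelium markers (right). The circles of all 6 DSS libraries lie at 0.71 or above, and the triangles between -0.12 and 0.40.

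The steps from lanosterol to cholesterol were mixed. Of 8 genes, Cyp51 and Hsd17b7 rose and Ebp fell in both DSS groups, and 5 were not called in either. Cyp51 (ENSMUSG00000001467, chromosome 5, 4131145 to 4154746, minus strand), the P450 enzyme that demethylates lanosterol, stood at 31.4, 21.7 and 23.99 CPM (NC), 74.6, 57.4 and 100.2 CPM (MC) and 97.3, 208 and 103 CPM (LRWE). No NC library reached the DSS libraries, and LRWE 2 stood far above the rest. Cyp51 rose by 1.59 ± 0.33 (adjusted p = 0.0272) in MC and 2.40 ± 0.34 (adjusted p = 0.00585) in LRWE, the latter the largest change among the 30 genes in these comparisons.

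The Cyp51 call in LRWE held under all 19 alternatives, and that in MC did not when any 1 NC library, MC 1 or MC 3 was left out (adjusted p = 0.0699 to 0.11). Cyp51 overlaps Akap9 on the opposite strand by 166 bases, and Akap9 changed by -1.14 ± 0.13 in both groups (adjusted p = 0.00443 in MC and 0.00404 in LRWE). Hsd17b7 (ENSMUSG00000026675, chromosome 1, 169777104 to 169796810, minus strand), the reductase that follows removal of the methyl groups, stood at 5.26, 6.78 and 6.49 CPM (NC), 17.3, 18.6 and 18.9 CPM (MC) and 16.7, 19.3 and 14.7 CPM (LRWE). Its libraries were close together within each group and apart from NC. Hsd17b7 rose by 1.56 ± 0.19 (adjusted p = 0.00461) in MC and 1.45 ± 0.19 (adjusted p = 0.00482) in LRWE, and both calls held under all 19 alternatives.

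Ebp (ENSMUSG00000031168, chromosome X, 8051568 to 8059751, minus strand), the isomerase that shifts a double bond in the sterol ring, stood at 91.3, 90.9 and 94.7 CPM (NC), 29.7, 30.2 and 42.7 CPM (MC) and 38.9, 63.8 and 50.7 CPM (LRWE). The NC libraries agreed closely and lay above every DSS library. Ebp changed by -1.43 ± 0.21 (adjusted p = 0.00857) in MC, a call that held under all 19 alternatives, and by -0.85 ± 0.21 (adjusted p = 0.0365) in LRWE, a call lost when any 1 NC library, LRWE 1 or LRWE 3 was left out (adjusted p = 0.0596 to 0.116). In all 6 DSS libraries Ebp lay below and Hsd17b7 above every NC library.

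The remaining 5 genes of these steps gave values on both sides of 0. Msmo1, the oxidase of the methyl groups, was at 0.96 ± 0.32 (adjusted p = 0.109) in MC, with 77.8 CPM in MC 1 against 151.9 and 143.7 in the other two, and at 0.88 ± 0.32 (adjusted p = 0.118) in LRWE. It passed in MC without LRWE 2 (adjusted p = 0.0453), with DESeq2 (0.0258) and in a fit of MC and NC alone (0.0470). Nsdhl, the dehydrogenase of the same sequence, was at 0.49 ± 0.19 in MC and 0.30 ± 0.19 in LRWE, and passed in MC in both limma fits and voom (adjusted p = 0.0261 to 0.0368). The reductase Tm7sf2 was at 0.29 ± 0.19 and 0.40 ± 0.19, and passed in LRWE with voom (adjusted p = 0.0358). The last enzymes of the route lay below 0 in both groups, with Sc5d, a desaturase, at -0.29 ± 0.16 and -0.15 ± 0.16, and Dhcr7, the reductase that yields cholesterol, at -0.36 ± 0.17 and -0.09 ± 0.17. The Tm7sf2 span shares 9 bases with Vps51 on the same strand.

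The carrier Stard4 (ENSMUSG00000024378, chromosome 18, 33332408 to 33346915, minus strand), which moves cholesterol between membranes, stood at 69.3, 59.2 and 59.4 CPM (NC), 92.5, 56.9 and 109 CPM (MC) and 103, 219 and 141 CPM (LRWE). MC 2 lay below every NC library, so MC and NC overlapped, while all LRWE libraries lay above NC. Stard4 rose in LRWE by 1.30 ± 0.31 (adjusted p = 0.0323) and was not called in MC, at 0.46 ± 0.30 (adjusted p = 0.397). The LRWE call did not hold when any 1 NC library, LRWE 2 or LRWE 3 was left out (adjusted p = 0.0697 to 0.123). Without MC 2 and LRWE 2 together, a fit added after the data were seen, Stard4 was called in MC (0.69, adjusted p = 0.0356).

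The 6 fatty acid synthesis genes showed no common shift, with Elovl6 higher in both DSS groups and Acly lower in LRWE. Elovl6 (ENSMUSG00000041220, chromosome 3, 129326004 to 129428620, plus strand), which lengthens palmitate, stood at 36.1, 43.6 and 42.7 CPM (NC), 68.1, 74.3 and 75.3 CPM (MC) and 99.1, 119 and 81.6 CPM (LRWE). The 3 groups did not overlap. Elovl6 rose by 0.83 ± 0.16 (adjusted p = 0.0215) in MC and 1.29 ± 0.16 (adjusted p = 0.00467) in LRWE. The LRWE call held under all 19 alternatives, and the MC call did not when any 1 NC library, MC 1 or MC 3 was left out (adjusted p = 0.0558 to 0.106).

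Acly (ENSMUSG00000020917, chromosome 11, 100367179 to 100418826, minus strand), which makes cytosolic acetyl-CoA from citrate for both routes, stood at 139, 131 and 132 CPM (NC), 84.7, 129.6 and 92.3 CPM (MC) and 75.1, 45.5 and 61.8 CPM (LRWE). LRWE 2 was the lowest library, and MC 2 lay just under the lowest NC library. Acly fell in LRWE, at -1.14 ± 0.22 (adjusted p = 0.0160), and was not called in MC, at -0.39 ± 0.22 (adjusted p = 0.310). The LRWE call did not hold when any 1 NC library or LRWE 3 was left out (adjusted p = 0.0546 to 0.0656). Acly was called lower in MC without MC 2 and LRWE 2 together (-0.60, adjusted p = 0.0272) and with voom (-0.53, adjusted p = 0.0194).

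The carboxylase and synthase that build the chain stayed within 0.4 log2 units of NC and were not called. Acaca, acetyl-CoA carboxylase, was at 0.13 ± 0.15 in MC and 0.32 ± 0.15 in LRWE. Fasn, fatty acid synthase, was at 0.38 ± 0.14 and 0.39 ± 0.14, and its libraries lay above NC in both DSS groups. In alternatives, Acaca passed in LRWE with voom (adjusted p = 0.0210), and Fasn in LRWE with voom (0.0141) and in MC with DESeq2 (0.0488) and voom (0.0475). Scd1, a desaturase, ranged from 10.5 to 42.9 CPM with large spread inside NC and MC, and was at 0.00 ± 0.43 in MC and -0.85 ± 0.44 in LRWE. Its paralogue Scd2, with which reads could be shared in counting, ranged from 130.2 to 232.9 CPM and was at 0.34 ± 0.18 and -0.05 ± 0.18. Fat cells express this route strongly, and of their markers Lep was at 0 in 8 libraries, Adipoq was at 0 in 3 and at most 4.14 CPM, and the 9 tested markers summed to between 72.9 and 163.0 CPM over the NC libraries, 115.4 and 132.3 over MC, and 121.3 and 143.8 over LRWE. Of the 9, Cidec, a lipid droplet protein, stood at 1.18, 1.54 and 7.35 CPM (NC), 13.6, 4.34 and 21.1 CPM (MC) and 27.2, 32.8 and 22.95 CPM (LRWE) and rose in LRWE by 3.04 ± 0.78 (adjusted p = 0.0414), and Adrb3, a receptor for noradrenaline, changed by -1.37 ± 0.26 (adjusted p = 0.0151) in LRWE. None of the 9 was called in MC, and the part of fat cells in the fatty acid gene values was not tested. Sebaceous gland markers summed to at most 1.897 CPM in any library.

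Per transcript length, the order of the genes differed between groups. In FPKM, the length-scaled level the authors deposited, Ebp (36.5) and Insig1 (32.4) had the highest means of the 30 genes in NC, and Lss (1.02) and Hsd17b7 (1.11) the lowest. In MC the highest means were those of Hmgcs1 (43.3) and Scd2 (35.6), and in LRWE those of Hmgcs1 (41.4) and Cyp51 (26.6). Within MC, replicate 3 was the highest library for 21 of the 30 genes, against 29.3% of all tested genes. MC 1 was the lowest for 18 of the 30, against 31.2%. Within LRWE, replicate 2 was the highest for 21 of the 30, against 38.3% of all tested genes. LRWE 3 was the lowest for 17 of the 30, against 21.8%.

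Among 12 tested genes of sterol synthesis and SREBP processing, 1 fell in MC, where 3.53% of all tested genes fell, and 2 rose in LRWE, where 6.04% rose, so that each count rests on 1 or 2 genes. Rnf139, a ubiquitin ligase of the endoplasmic reticulum, fell in MC, at -0.67 ± 0.17 (adjusted p = 0.0469). Erg28, a scaffold of the sterol demethylation enzymes known from yeast, rose in LRWE by 1.27 ± 0.31 (adjusted p = 0.0376). Pgrmc1, a partner of P450 enzymes, rose in LRWE by 1.13 ± 0.26 (adjusted p = 0.0303), and its MC libraries ran from 99.6 to 197.1 CPM around 102.7 to 116.1 in NC. The median of the 12 was -0.19 in MC and 0.23 in LRWE, beside -0.01 and -0.05 over all tested genes.

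Farnesyl diphosphate also feeds the isoprenoid branch, which makes dolichol, ubiquinone and protein prenyl groups. Of its 12 genes, 1 rose in MC, where 2.84% of all tested genes rose, and 3 in LRWE, where 6.04% rose, and none was called lower. The median of the 12 was 0.09 in MC and 0.36 in LRWE. Nus1, a subunit of the dolichol-forming transferase, stood at 72.3, 72.9 and 69.5 CPM (NC), 104, 110.3 and 153 CPM (MC) and 182, 232 and 194 CPM (LRWE). The 3 groups did not overlap, and Nus1 rose by 0.77 ± 0.18 (adjusted p = 0.0358) in MC and 1.50 ± 0.18 (adjusted p = 0.00419) in LRWE. Rce1 and Icmt, which trim and methylate prenylated proteins, rose in LRWE, by 0.81 ± 0.18 (adjusted p = 0.0278) and 0.72 ± 0.17 (adjusted p = 0.0326) in that order.

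Of 20 tested genes of cholesterol uptake, storage and efflux, 4 fell in MC and 5 in LRWE, where 3.53% and 3.97% of all tested genes fell, and none was called higher. The median was -0.45 in MC and -0.55 in LRWE, beside -0.01 and -0.05 over all tested genes. Cyp27a1, which oxidises the cholesterol side chain, stood at 135, 146 and 108 CPM (NC), 43.4, 32.5 and 22.3 CPM (MC) and 41.6, 38.9 and 65.4 CPM (LRWE), and changed by -1.98 ± 0.29 (adjusted p = 0.00806) in MC and -1.41 ± 0.28 (adjusted p = 0.0188) in LRWE without overlap with NC. Npc2, which hands cholesterol out of lysosomes, changed by -0.96 ± 0.15 (adjusted p = 0.0112) and -0.64 ± 0.15 (adjusted p = 0.0339). Soat1, which esterifies cholesterol for storage, and Mylip, a ubiquitin ligase for lipoprotein receptors, fell in LRWE, at -1.65 ± 0.29 (adjusted p = 0.0125) and -1.64 ± 0.35 (adjusted p = 0.0235) in that order. Macrophage markers, a cell type that expresses several of these genes, summed to between 215.8 and 331.0 CPM over the NC libraries, 92.7 and 210.4 over MC, and 59.02 and 134.0 over LRWE, and their part in these falls was not tested.

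The wider fatty acid list of 32 tested genes split, with 6 higher and 5 lower in MC and 8 higher and 2 lower in LRWE, where 6.37% and 10.0% of all tested genes were called. Lpin2, a phosphatidate phosphatase of lipid assembly, stood at 23.6, 20.9 and 25.4 CPM (NC), 188, 77.98 and 184 CPM (MC) and 240.0, 281 and 252 CPM (LRWE). MC 2 was well below the other DSS libraries and above NC. Lpin2 rose by 2.69 ± 0.31 (adjusted p = 0.00443) in MC and 3.47 ± 0.32 (adjusted p = 0.00231) in LRWE. Me1, the malic enzyme that supplies NADPH, rose by 1.32 ± 0.16 (adjusted p = 0.00461) and 1.64 ± 0.16 (adjusted p = 0.00236), and Slc25a1, the mitochondrial citrate exporter, by 1.03 ± 0.22 (adjusted p = 0.0314) and 1.61 ± 0.23 (adjusted p = 0.00582). Acss2, which makes cytosolic acetyl-CoA from acetate, stood at 73.9, 87.6 and 93.4 CPM (NC), 23.01, 19.04 and 22.3 CPM (MC) and 27.1, 29.98 and 34.4 CPM (LRWE), and changed by -1.99 ± 0.16 (adjusted p = 0.00165) and -1.48 ± 0.16 (adjusted p = 0.00266). Acly and Acss2, which both supply cytosolic acetyl-CoA, were thus called lower in LRWE than in NC, and the citrate exporter higher.

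The comparison of LRWE with MC asks what the extract changed in DSS colon, and no synthesis gene passed the threshold in edgeR. At an unadjusted p under 0.05 stood 6 of the 30 genes, against 5139 of all tested genes (23.6%). The libraries did not overlap for 3 of the 30, Insig2 and Elovl6 higher in LRWE and Acly lower, against 28.4% of all tested genes. The median of the 30 genes was 0.03, beside -0.03 over all tested genes. With DESeq2 size factors the median of the 30 was -0.002, beside -0.07 over all tested genes. With scaling by library totals it was -0.18, beside -0.24. Log2 fold changes ran from -0.85 for Scd1 to 0.84 for Stard4.

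Acly was at -0.75 ± 0.22 (adjusted p = 0.164) and Insig2 at 0.66 ± 0.19 (adjusted p = 0.164). The other 4 of the 6 genes were Elovl6 at 0.46 ± 0.16 (adjusted p = 0.170), Ebp at 0.58 ± 0.21 (adjusted p = 0.172), Stard4 at 0.84 ± 0.30 (adjusted p = 0.174) and Cyp51 at 0.81 ± 0.33 (adjusted p = 0.189). DESeq2 called 2001 genes, among them Insig2 (0.62, adjusted p = 0.0407) and Acly (-0.78, adjusted p = 0.0279). Without LRWE 1, edgeR called 2436 genes, among them Ebp (0.74, adjusted p = 0.0483) and Acly (-0.93, adjusted p = 0.0422).

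Epithelium markers stood apart in the same comparison, with 9 of 12 not overlapping and higher in LRWE, against 14.3% of all tested genes, and a median of 0.75. Smooth muscle markers had a median of -0.85, all 8 lay below 0, and 4 were lower without overlap, against 14.1% of all tested genes. The part of either in these values was not tested. For 6 of the genes that rose in MC, the intervals around the difference between LRWE and MC were wide. The 95% interval ran from -0.49 to 0.75 for Hmgcs1, -0.59 to 0.55 for Idi1, -0.65 to 0.30 for Fdps, -0.72 to 0.43 for Sqle, -0.67 to 0.44 for Lss and -0.53 to 0.30 for Hsd17b7. Insig1 was at -0.49 to 0.39 and Srebf2 at -0.09 to 0.67. All of these intervals include 0 and extend to differences of 0.3 or more on the log2 scale in at least 1 direction. Of the other genes called in MC against NC, Fdft1 was at -0.47 to 0.49. The intervals of Cyp51 (0.07 to 1.55), Elovl6 (0.10 to 0.83) and Ebp (0.11 to 1.05) lay above 0. The intervals are not adjusted for the number of genes tested.

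**Figure D5:**
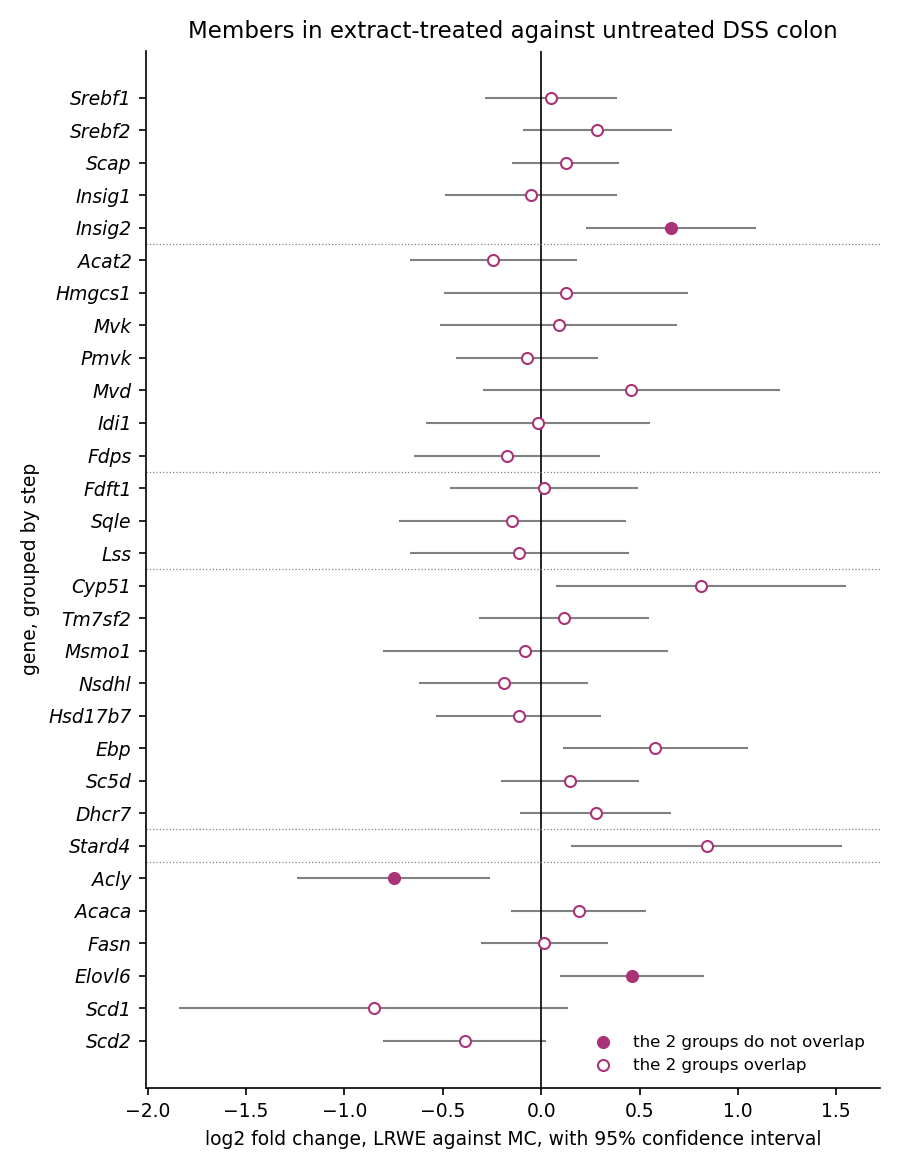
Log2 fold change of the 30 genes in LRWE against MC with 95% confidence intervals. Filled points mark Insig2, Elovl6 and Acly, whose libraries do not overlap between the groups, and the intervals of most other genes cross 0.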

How the data were processed

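Per the file headers, the authors deposited 9 columns of FPKM and 9 columns of counts for 36256 genes, 1 of each per library. The counts are whole and were treated like expected counts that the authors rounded, an inference from StringTie being named. Upstream tools, per the submitters' processing notes, were cutadapt (1.9), HISAT2 (2.0.4), StringTie (1.3.4d) and edgeR, and settings were not given. The human build hg38 stands in those notes although the identifiers are of the mouse, so gene coordinates are given as deposited with the build not named.

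Genes were kept by filterByExpr (21767), libraries were scaled by TMM, and the 3 group means were estimated in a single fit of the 9 libraries with edgeR 4.0.16 in R 4.3.3 (glmQLFit and glmQLFTest). P-values are two-sided and adjusted by Benjamini-Hochberg over all tested genes. SE was obtained as |log2 fold change| / √F. Log2 CPM used a prior count of 2. The scripts were tested on simulated data. Replicates were separate mice, and p-values reflect how much these mice, 3 to a group, varied, together with counting error.

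The genes and lists were chosen with earlier results of these data known. Levels per library are given for genes called in any comparison, and up to 4 called genes by smallest p are named from each other list (81 of 82 of their symbols matched). A total of 4 listed genes are not reported here. Promoters are from RefSeq (GRCm38.p6), and 6 of the 30 genes were not matched. Alternatives used DESeq2 1.42.0 and limma 3.58.1.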

Additional observations from a re-analysis of the deposited data

How the results depend on the processing

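No called value of the 30 genes changed sign in any of the 19 alternatives, while the number of calls varied with the test and with single libraries. All genes called in MC against NC were 1386, and came to 3762 with DESeq2, 2374 with limma on log2(FPKM + 1), 5205 with voom and quality weights, 3781 with only the 2 groups compared, 3301 without MC 2 and LRWE 2 together (chosen after seeing the data), and 281 to 3318 with 1 library left out. For LRWE against NC they were 2179, with 4398 by DESeq2, 6142 by voom and 459 to 2725 with 1 library left out. For LRWE against MC they were 0, with 2001 by DESeq2, 1 by limma on log2(FPKM + 0.1), 2901 by voom and 0 to 2436 with 1 library left out. Among the 30 genes, called numbers with 1 library left out were 5 to 14 for MC against NC (16 without MC 2 and LRWE 2 together), 7 to 17 for LRWE against NC and 0 to 2 for LRWE against MC, where DESeq2 called 2 and voom 1 (Acly, -0.58, adjusted p = 0.0360). Scaling by library totals moved the median of all genes to 0.14 in MC against NC, -0.24 in LRWE against MC and -0.10 in LRWE against NC. Libraries with the same replicate number were not the closest matches (same-number correlations of deviations -0.16 to 0.03, and 0 of 9 best matches on the own number). Deviations from group means of so few libraries cannot settle whether the mice were paired. A fit with replicate number as a block called 306 genes and 6 of the 30 in MC against NC. In LRWE against NC it called 600 genes and 8 of the 30. The MC calls of Hmgcs1, Idi1, Sqle, Lss, Cyp51 and Elovl6 were lost there (adjusted p = 0.0584 to 0.127). So were the LRWE calls of Hmgcs1, Idi1, Sqle, Lss, Ebp, Acly, Stard4 and Srebf1 (adjusted p = 0.0529 to 0.0993).

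Values that changed sign were not called in their comparison, and are of LRWE against MC unless another comparison is named. Leaving out the filter on low counts gave Scd1 (-0.016, MC against NC), Srebf1 (-0.016), Fdft1 (-0.052), Fasn (-0.038) and Pmvk (-0.024, LRWE against NC). Voom gave Scd1 (-0.13, MC against NC), Srebf1 (-0.080), Hmgcs1 (-0.27), Mvk (-0.19), Fdft1 (-0.25) and Pmvk (-0.067, LRWE against NC). DESeq2 size factors gave Fdft1 (-0.022) and Fasn (-0.018). Scaling by library totals gave Srebf1 (-0.18), Scap (-0.088), Hmgcs1 (-0.088), Mvk (-0.0969), Fdft1 (-0.20), Tm7sf2 (-0.088), Sc5d (-0.065), Acaca (-0.0098), Fasn (-0.18) and Pmvk (-0.012, LRWE against NC). The DESeq2 test gave Fdft1 (-0.023) and Fasn (-0.018). Limma on log2(FPKM + 1) gave Srebf1 (-0.13), Scap (-0.049), Hmgcs1 (-0.087), Mvk (-0.070), Fdft1 (-0.18), Tm7sf2 (-0.048), Sc5d (-0.033) and Fasn (-0.13). Limma on log2(FPKM + 0.1) gave Srebf1 (-0.14), Scap (-0.055), Hmgcs1 (-0.089), Mvk (-0.084), Fdft1 (-0.18), Tm7sf2 (-0.059), Sc5d (-0.034) and Fasn (-0.15). Fitting only the 2 groups compared gave Fdft1 (-0.034) and Fasn (-0.022). The replicate block gave Fdft1 (-0.0049). With 1 library, or MC 2 and LRWE 2 together, left out, the ranges that crossed 0 were Fasn (-0.070 to 0.13), Fdft1 (-0.18 to 0.19), Hmgcs1 (-0.34 to 0.33), Idi1 (-0.29 to 0.18), Insig1 (-0.16 to 0.011), Lss (-0.46 to 0.11), Msmo1 (-0.42 to 0.14), Mvk (-0.10 to 0.30), Pmvk (-0.15 to 0.0040), Sqle (-0.34 to 0.0998), Srebf1 (-0.11 to 0.13), Pmvk (-0.056 to 0.12, LRWE against NC), Scd1 (-0.53 to 0.43, MC against NC) and Scd2 (-0.13 to 0.033, LRWE against NC). The cause of these changes was not tested.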
